A study of Mus musculus with 72 samples.

Results

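The suprachiasmatic nucleus (SCN) is the hypothalamic nucleus that holds the central circadian clock of mammals. Of the 24883 rows of the expression tables of the SCN, 68 carry the symbol of a receptor for glutamate, GABA, glycine or, at nicotinic synapses, acetylcholine. They were chosen by symbol alone, as the genes of the ionotropic glutamate receptors (Gria, Grid, Grik and Grin with a digit), the metabotropic glutamate receptors (Grm), the GABA-A receptors (Gabr), the glycine receptors (Glra and Glrb) and the nicotinic receptors (Chrn). The rule itself uses no measured value. Of the 68 genes, 66 encode receptor subunits. Grid2ip, which encodes a scaffold protein that binds the delta receptor, and Grin1os, an antisense RNA, match by name only.

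RNA-seq was done on the SCN of male C57BL/6 mice, 8 weeks old when acclimated to the light condition, in 4 groups of 18 libraries. Ctrl mice ate a diet matched to the test diet for nitrogen, and -Trp mice ate a diet free of tryptophan. Both diets were given for 2 weeks, after 1 week in the same light, either with 12 h of light in each day (LD) or in constant darkness (DD). Each group holds 3 libraries at each of 6 time points (0, 4, 8, 12, 16 and 20 h), and each library is from another mouse. The labels name no mutation and no drug for any group.

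The columns of the deposited tables and those of the study's supplementary table of rhythmic genes carry the same names over different values. All 36 control columns of the supplementary table equalled a deposited column of another name, within a relative tolerance of 0.0001, and none equalled the column of its own name. The libraries were therefore placed in the order of the supplementary table. Equal values thus place the 36 control libraries. The 36 -Trp libraries were placed by carrying on the same shift of 12 columns, which no equal value checks, although the sums of FPKM described next put all but 1 of them on the side of the Ctrl libraries in the same light. Counts of called genes with the columns as named are given too, because many calls differ between the arrangements.

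The values are FPKM (fragments normalised for transcript length and for how many were mapped in that library), and the depth behind a value is unknown. The difference between DD and LD still went with transcript length, as described further on. Levels of genes of unlike length can thus be compared only roughly. The sum of FPKM over all genes was 403066 to 524705 in the LD libraries and 317417 to 353587 in the DD libraries, except for 411944 in -Trp DD replicate 2 at 4 h. Of the 48 receptor genes tested between LD and DD with the -Trp diet (mean of 0.5 FPKM or more), that library lay inside the range of -Trp LD for 41, and for 20 of these it also lay outside the range of the other libraries of its own group. It is kept under its label. Counts of called receptor genes that compare diets in DD, light conditions with the -Trp diet, or both together are given with and without it. Other results include it unless stated. One library in each group held more than 10 FPKM of Slc17a7, the vesicular glutamate transporter of cortical and thalamic neurons. They were Ctrl LD replicate 2 at 20 h, with 13.6 FPKM, -Trp LD replicate 3 at 20 h, with 24.3, Ctrl DD replicate 1 at 12 h, with 279, and -Trp DD replicate 1 at 12 h, with 17.2. The summed level of 14 SCN marker genes was 182 FPKM in that Ctrl DD library and 343 or more in all other Ctrl DD libraries. Their lowest sums in the other groups were 652 (Ctrl LD), 467 (-Trp LD) and 453 FPKM (-Trp DD), and none of the 14 had a group mean under 0.1 FPKM.

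Neurons of the SCN use GABA as their main transmitter, and light reaches them through glutamate released by the retinohypothalamic tract. AMPA, NMDA and kainate receptors are cation channels opened by glutamate, whereas metabotropic glutamate receptors act through G proteins, group I on phospholipase C and groups II and III against adenylyl cyclase. GABA-A and glycine receptors are chloride channels, and nicotinic receptors are cation channels opened by acetylcholine. Tryptophan bears on these receptors through the kynurenine pathway, since kynurenic acid blocks ionotropic glutamate receptors and quinolinic acid activates NMDA receptors.

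Over all 72 libraries, the mean reached 0.5 FPKM for 48 of the 68 genes. It was over 10 FPKM for 25 genes and over 50 FPKM for 5. None was at 0 in every library, and 57 were above 0 in all libraries. The 68 genes together made up 0.127% to 0.299% of all FPKM in a library. Gria1, an AMPA receptor subunit at chr11:57011387-57330244 (GRCm38, plus strand), had the highest level, with 92.6 ± 7.62 FPKM (SD, n = 72). Among the other AMPA subunits the means were 51.4 ± 22.8 FPKM for Gria2, whose product makes AMPA receptors impermeable to calcium, 27.8 ± 4.23 for Gria4 and 17.8 ± 4.98 for Gria3. The large SD of Gria2 came with the light condition, as described further on.

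Grin1, the subunit that all NMDA receptors need, lies at chr2:25291181-25319187 on the minus strand and had a mean of 63.8 ± 7.99 FPKM (SD, n = 72). Its partners were far lower per length of transcript. Grin3a had a mean of 10.5 FPKM, Grin2d 5.35, Grin2c 4.87, Grin2b 1.86, Grin2a 1.31 and Grin3b 0.121. In FPKM the 4 Grin2 subunits, which carry the glutamate site, thus added up to far less than Grin1. The longest transcripts of Grin2b and Grin2a have 24060 and 14634 bases, against 4276 for Grin1. Grin1os, with a mean of 4.62 FPKM, lies on the opposite strand inside Grin1 (chr2:25291220-25298925). Whether the reads were counted by strand is not stated, so reads of Grin1 and Grin1os may not be told apart.

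Among the kainate receptor genes Grik5, a subunit that needs a partner to form a channel, had the highest mean, with 33.2 ± 5.45 FPKM (SD, n = 72). Grik2 and Grik3, which can form channels alone, had 12.9 and 12.2 FPKM. Grik4, which like Grik5 needs a partner, had 8.43 and Grik1 had 7.59. Grid1 of the delta receptors had 20.9 FPKM, and the scaffold gene Grid2ip 0.393. Of the metabotropic receptors, Grm7 (13.6 FPKM) and Grm5 (12.7) led, and among the others were Grm3 (7.15), Grm4 (4.46), Grm8 (4.32) and Grm2 (2.73). Grm6, known from retinal ON bipolar cells, was under 0.1 FPKM.

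Among the GABA-A receptor genes, the alpha subunit gene Gabra3 had a mean of 39.8 ± 5.07 FPKM (SD, n = 72). Gabra5, Gabrq, Gabrg1 and Gabrb2 had means of 22.7, 22.6, 21.8 and 20.2 FPKM, and Gabra2, Gabrb1, Gabra4, Gabre, Gabrg3 and Gabrr2 means of 14.3, 12.3, 8.77, 5.88, 3.32 and 0.833. Gabra6, the subunit of cerebellar granule cells, was under 0.1 FPKM, as were Gabrp, Gabrr1 and Gabrr3. Gabrd, the subunit of receptors outside synapses, had a mean of 2.47 FPKM with a coefficient of variation of 204%, and is named for that value after it was seen. Its highest values were 34.3 FPKM in -Trp LD replicate 3 at 20 h and 20.7 in Ctrl DD replicate 1 at 12 h, both among the 4 libraries with more than 10 FPKM of Slc17a7. The rest of these 4 held 1.36 and 3.13 FPKM of Gabrd. The next highest value, 16.9 FPKM, was in -Trp LD replicate 2 at 0 h, with 0.990 FPKM of Slc17a7. Some of these genes lie in clusters, with Gabra2, Gabra4, Gabrb1 and Gabrg1 on chromosome 5 and Gabra3, Gabre and Gabrq on chromosome X. Gabra4 and Gabrb1 overlap each other.

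Glrb, the beta subunit of glycine receptors, had a mean of 48.9 ± 7.20 FPKM (SD, n = 72). The channel-forming alpha subunits were lower, with 17.3 for Glra2, 6.92 for Glra3, 2.82 for Glra1 and 0.421 for Glra4. Of the 16 nicotinic receptor genes, Chrnb2 (17.0 FPKM), Chrna4 (5.28), Chrna7 (4.11) and Chrna3 (1.30) had means over 0.5 FPKM. The first pair forms the most common nicotinic receptor of the brain, and Chrna7 forms receptors of 1 kind of subunit. Chrnb1, Chrna2, Chrna1, Chrnb4 and Chrna6 had means of 0.386, 0.349, 0.288, 0.173 and 0.139 FPKM, and the other 7, among them Chrnd, Chrne and Chrng of the neuromuscular junction, were under 0.1.

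**Figure D1:**
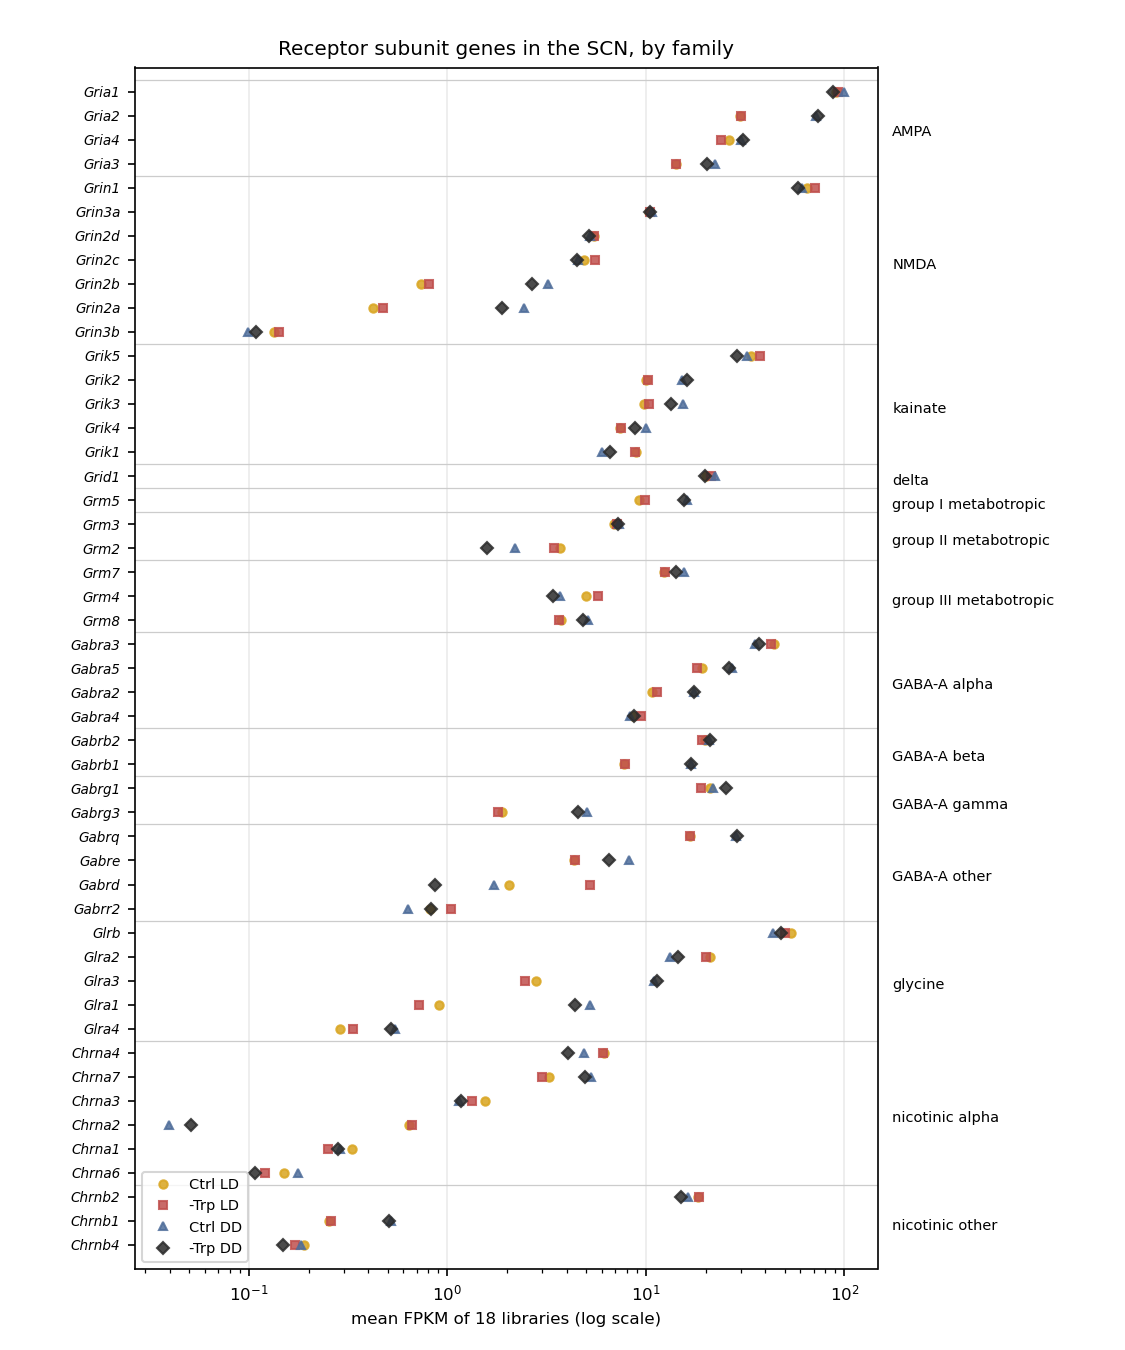
Mean FPKM (log axis) of receptor genes whose mean reached 0.1 FPKM, by family, with 1 point for each of the 4 groups (mean of 18 libraries). The group means span from 0.0395 FPKM for Chrna2 to 99.2 FPKM for Gria1, both in Ctrl DD, and the points of the LD and DD groups stand apart for genes such as Gria2, Grin2a, Grin2b, Glra1 and Glra3.

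The effect of the diet in constant darkness was asked first, since the study looked for effects of tryptophan without light as a cue. FPKM, scaled by median-of-ratios factors and given a pseudocount of 0.5, were compared as log2 values by limma with time of day as a factor, so a log2 difference understates the change of genes with low FPKM. Of 50 receptor genes tested, 5 passed the threshold of 0.05 after Benjamini-Hochberg adjustment over all genes, 1 higher and 4 lower in -Trp DD. That is 10% of the genes tested, against 13.4% of all genes (7.25% higher and 6.19% lower), so the share called was not above that of genes in general. At an unadjusted p under 0.05 there were 11 receptor genes, against 31.6% of all genes, and none had groups that did not overlap, against 0.0069% of all genes. Their median log2 difference (-Trp minus Ctrl) was -0.02, against 0.01 over all genes. Among the called genes are 1 AMPA subunit and 3 of the 5 kainate subunits, while the other kainate subunits, Grik1 and Grik2, had higher means in -Trp DD and were not called. In bulk tissue, fewer cells of a type and less RNA per cell cannot be told apart.

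Gria1 was lower in -Trp DD. Its lowest, median and highest values were 84.2, 99.3 and 111 FPKM in Ctrl DD and 75.0, 89.4 and 97.0 in -Trp DD. The lowest Ctrl DD value is that of replicate 1 at 12 h, the library with 279 FPKM of Slc17a7, and the lowest of the others was 95.3. All 18 -Trp DD libraries lay below the Ctrl DD median, although the ranges overlapped. The log2 difference was -0.17 (SE 0.029, limma adjusted p = 0.00099, n = 18 per group), and the mean was lower at 6 of 6 time points. The call was kept in each of the 36 fits that left out 1 library.

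The called kainate genes were Grik5, Grik3 and Grik4, and their calls were less stable. Grik5 had a lowest, median and highest value of 24.4, 32.1 and 38.3 FPKM in Ctrl DD and of 23.3, 28.7 and 36.8 in -Trp DD. Its log2 difference was -0.17 (SE 0.053, limma adjusted p = 0.036), with 15 of 18 -Trp DD libraries below the Ctrl DD median. Grik3, with 10.2, 15.1 and 19.5 FPKM in Ctrl DD and 9.70, 13.2 and 17.2 in -Trp DD, differed by -0.20 (SE 0.066, limma adjusted p = 0.041), with 13 of 18 libraries below. For both genes the groups overlapped over most of their range. The highest Ctrl DD value of Grik5 and the lowest of Grik3 are those of replicate 1 at 12 h, the library with 279 FPKM of Slc17a7. Without that library they were 37.7 and 13.5 FPKM. Grik4, with 6.97, 10.2 and 11.1 FPKM in Ctrl DD and 6.10, 9.15 and 10.6 in -Trp DD, differed by -0.17 (SE 0.059, limma adjusted p = 0.048), with 16 of 18 below. The mean was lower at 6 of 6 time points for Grik3 and Grik4 and at 5 of 6 for Grik5. The means of the remaining kainate genes were 5.98 FPKM in Ctrl DD and 6.63 in -Trp DD for Grik1, a log2 difference of 0.14 (limma adjusted p = 0.30), and 15.3 and 16.1 FPKM for Grik2, a log2 difference of 0.09 (limma adjusted p = 0.28). Of the 36 fits that left out 1 library, 24 called Grik5, 17 called Grik3 and 12 called Grik4.

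Results in DD moved with single libraries. Without -Trp DD replicate 2 at 4 h, the library inside the LD range, 5 genes were again called (13.4% of all genes), 2 higher, Glrb among them, and 3 lower, Gria1, Grik4 and Grik5. Glrb then differed by 0.14 (SE 0.047, limma adjusted p = 0.040), and Grik3 by -0.18 with an adjusted p of 0.059. Without the 4 libraries with more than 10 FPKM of Slc17a7, 9 of 49 genes were called (16.5% of all genes), 1 higher and 8 lower, among the lower Gria1, Grik3, Chrna4, Chrnb2, Gabre, Grid1 and Grm7. Grik5 and Grik4 then had an adjusted p of 0.055 and 0.070. Beside these differences, 2 of 6 oligodendrocyte markers were lower in -Trp DD, among them Mag by 0.38 on the log2 scale, while 0 of 14 SCN markers and 1 of 6 pan-neuronal markers (Syn1, lower) were called. The summed oligodendrocyte markers ranged from 1058 to 3186 FPKM in Ctrl DD and from 853 to 2130 in -Trp DD. Without the 4 libraries with more than 10 FPKM of Slc17a7, the highest sum in Ctrl DD was 2345. Of 3 oligodendrocyte precursor markers 2 were lower, of 6 astrocyte markers 1 was higher and 1 lower, and of 5 microglia markers 1 was lower. Of 8 markers of neighbouring hypothalamic nuclei 1 was higher. No endothelial or ependymal marker was called. The share of all genes called was 13.4%. The part of these markers in the receptor results was not tested. In the order of the column names, 34 of 48 receptor genes were called between the diets in DD, as were 70.8% of all genes.

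**Figure D2:**
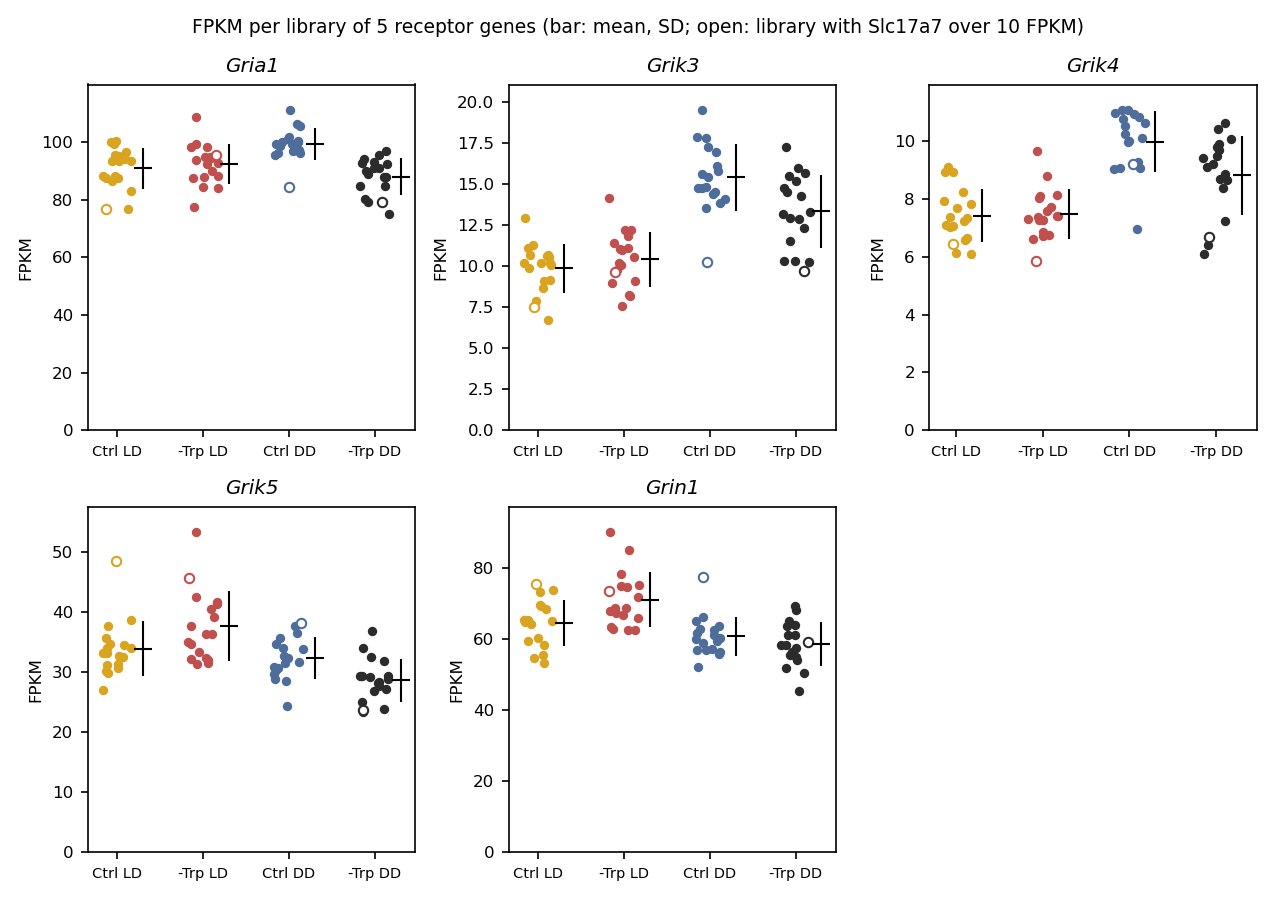
FPKM of Gria1, Grik3, Grik4, Grik5 and Grin1 in each library, by group, with points for libraries, a bar for the mean of 18 and the SD; open points are the 4 libraries with more than 10 FPKM of Slc17a7. In DD the -Trp points of Gria1 lie below the Ctrl median of 99.3 FPKM in all 18 libraries, whereas the kainate genes overlap more.

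RefSeq promoters (GRCm38.p6, 250 bases before to 50 after the start) were matched by symbol for 48 of the 68 genes. They are printed for the 3 kainate genes called between the diets in DD and for Grin1, called in the test of diet by light. Capitals mark the GC box (GGGCGG, bound by Sp1) and the E-box CACGTG (bound by CLOCK and BMAL1), each searched on both strands, and the promoters read 5′ to 3′ on the strand of the gene. Their positions are chr4:125490446-125490745 (plus) for Grik3, chr9:42944322-42944621 (minus) for Grik4, chr7:25072320-25072619 (minus) for Grik5 and chr2:25319138-25319437 (minus) for Grin1.
Grik3: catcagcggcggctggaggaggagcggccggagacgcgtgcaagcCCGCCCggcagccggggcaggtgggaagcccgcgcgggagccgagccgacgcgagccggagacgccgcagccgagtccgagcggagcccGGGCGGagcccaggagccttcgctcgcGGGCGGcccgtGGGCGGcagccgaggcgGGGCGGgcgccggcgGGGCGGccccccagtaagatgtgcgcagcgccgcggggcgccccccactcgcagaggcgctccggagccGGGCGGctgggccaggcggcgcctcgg
Grik4: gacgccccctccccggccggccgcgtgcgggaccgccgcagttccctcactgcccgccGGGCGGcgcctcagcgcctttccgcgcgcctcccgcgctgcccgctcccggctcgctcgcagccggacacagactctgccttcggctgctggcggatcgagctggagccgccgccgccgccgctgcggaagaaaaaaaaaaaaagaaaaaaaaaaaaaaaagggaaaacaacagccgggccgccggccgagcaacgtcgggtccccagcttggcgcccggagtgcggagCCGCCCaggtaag
Grik5: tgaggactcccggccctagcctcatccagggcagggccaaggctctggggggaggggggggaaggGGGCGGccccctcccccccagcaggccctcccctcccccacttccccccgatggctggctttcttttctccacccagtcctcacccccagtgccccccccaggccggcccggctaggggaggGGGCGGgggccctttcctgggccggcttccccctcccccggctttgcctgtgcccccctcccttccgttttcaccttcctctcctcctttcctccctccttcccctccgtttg
Grin1: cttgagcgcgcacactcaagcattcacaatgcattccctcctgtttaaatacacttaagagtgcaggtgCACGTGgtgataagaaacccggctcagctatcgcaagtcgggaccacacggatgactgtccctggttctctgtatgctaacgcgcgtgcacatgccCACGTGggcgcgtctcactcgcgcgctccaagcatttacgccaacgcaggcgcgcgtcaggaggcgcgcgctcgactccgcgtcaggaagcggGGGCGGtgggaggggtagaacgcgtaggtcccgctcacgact

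The promoter of Grik3 held 7 GC boxes, those of Grik4 and Grik5 held 2 each, and that of Grin1 held 1 GC box and 2 E-boxes. Of all 32851 promoters of this length, 35.66% held a GC box and 7.15% the E-box. Among the 48 receptor promoters, 26 held a GC box (54.17%) and 2 the E-box (4.17%), those of Chrna7 and Grin1. The palindrome TGACGTCA of cyclic AMP response elements, in 1.79% of all promoters, was in none of the 48, and the palindromic site of NRF1, in 0.97% of all, was in that of Gabrb1. The share of G and C was 82%, 70%, 72% and 60.67% in Grik3, Grik4, Grik5 and Grin1, against a median of 52.7% over all promoters. These matches describe letters in the window and not binding.

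Under the light-dark cycle the same diet comparison called 0 of 48 receptor genes by limma, against 1.11% of all genes (0.563% higher and 0.542% lower). At an unadjusted p under 0.05 there were 6 receptor genes, against 13% of all genes. The median log2 difference of the receptor genes was 0.03, against 0.00 over all genes. Closest to the threshold was Gabrr2, a rho subunit best known from the retina, with a mean of 1.05 FPKM in -Trp LD and 0.822 in Ctrl LD. Its log2 difference was 0.23 (SE 0.064, limma adjusted p = 0.070), and the mean was higher at 6 of 6 time points. Next was Grin1, with a lowest, median and highest value of 53.2, 65.3 and 75.5 FPKM in Ctrl LD and of 62.5, 68.8 and 90.0 in -Trp LD. Its log2 difference was 0.16 (SE 0.046, limma adjusted p = 0.090), with 14 of 18 -Trp libraries above the Ctrl median. Without the 4 libraries with more than 10 FPKM of Slc17a7, both were called, with an adjusted p of 0.047 for Gabrr2 and 0.041 for Grin1, as were 2.07% of all genes. The columns as named gave 31 of 48 receptor genes and 65.5% of all genes called in LD.

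Whether the diet difference itself differed between the light conditions was tested as an interaction. Of 48 receptor genes, 4 were called, all with a more negative diet difference in DD, against 7.69% of all genes (5.37% in that direction and 2.33% in the other). The share among the receptor genes was 8.33%. Gria1 differed between the diets by 0.04 in LD and -0.17 in DD on the log2 scale, an interaction of -0.21 (SE 0.046, limma adjusted p = 0.0039, n = 72). Its values in LD, 76.7 to 100.4 FPKM in Ctrl and 77.3 to 108 in -Trp, had nearly equal medians of 93.4 and 93.1. For Grik5 the diet difference was 0.16 in LD and -0.17 in DD, an interaction of -0.33 (SE 0.084, limma adjusted p = 0.010). Its LD values were 27.2, 33.2 and 48.5 FPKM (lowest, median and highest) in Ctrl and 31.4, 36.4 and 53.3 in -Trp. The value of 48.5 is that of Ctrl LD replicate 2 at 20 h, which held 13.6 FPKM of Slc17a7, and the highest of the others was 38.7.

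Grin1 differed by 0.16 in LD and -0.05 in DD, an interaction of -0.21 (SE 0.066, limma adjusted p = 0.041). In DD its lowest, median and highest values were 52.2, 60.2 and 77.5 FPKM with the Ctrl diet and 45.4, 58.3 and 69.3 with the -Trp diet. The value of 77.5 is that of Ctrl DD replicate 1 at 12 h, the library with 279 FPKM of Slc17a7, and the highest of the others was 66.3. Grik3 differed by 0.09 in LD and -0.20 in DD, an interaction of -0.29 (SE 0.096, limma adjusted p = 0.046). Gria1 and Grik5 were called in each of the 72 fits that left out 1 library, Grin1 in 47 and Grik3 in 33. Without -Trp DD replicate 2 at 4 h, 3 genes were called (Gria1, Grik5 and Grin1), as were 8.05% of all genes, and Grik3 had an adjusted p of 0.061. Under the column names, 37 of 48 receptor genes and 77.6% of all genes were called.

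**Figure D3:**
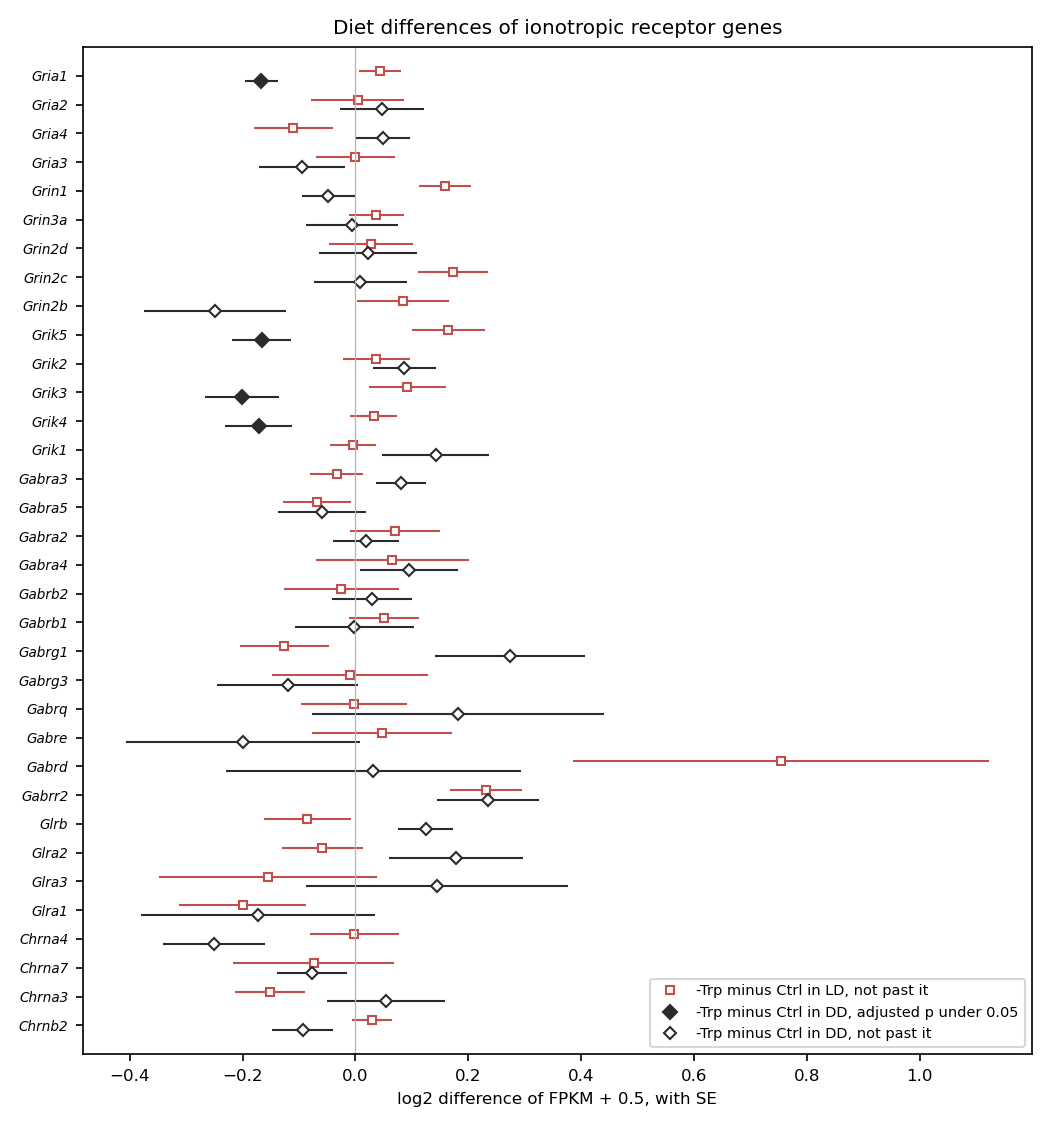
Log2 difference between the diets (-Trp minus Ctrl, with its SE) in LD and in DD for genes of ionotropic receptors. Gria1, Grik5, Grik3 and Grin1 lie lower in DD than in LD, as in the called interactions of -0.21, -0.33, -0.29 and -0.21, while the values of most other genes lie within 0.2 of 0 in both.

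The same comparisons were made for genes that work with these receptors. Of 37 auxiliary subunits and scaffold proteins tested, 0 were called in LD by limma, against 1.11% of all genes, and 5 in DD, against 13.4%, all lower with the -Trp diet. The share called in DD was thus close to that of all genes. The 5 were Dlg4, the scaffold PSD-95 of glutamatergic synapses (85.3 against 100.8 FPKM, log2 difference -0.23, SE 0.056, limma adjusted p = 0.011), Nlgn2, the neuroligin of inhibitory synapses (-0.21, adjusted p = 0.013), Cacng5 and Cacng2, auxiliary proteins of AMPA receptors (-0.18 and -0.22, adjusted p = 0.028 and 0.043), and Lhfpl4, an auxiliary protein of GABA-A receptors (-0.16, adjusted p = 0.044). The median log2 difference of the list in DD was -0.10. In the test of diet by light 5 of the 37 were called, against 7.69% of all genes, all more negative in DD, with Dlg4 at -0.42 (limma adjusted p = 0.0018). Of 7 GABA-B and muscarinic receptor genes, Gabbr1 (109.5 against 125 FPKM, -0.18, limma adjusted p = 0.0055) and Gabbr2 (-0.24, adjusted p = 0.036) were lower in -Trp DD. Both encode the subunits of the metabotropic GABA receptor. None of the 7 was called in LD, and Gabbr1 was also called for diet by light. Cacng2, Lhfpl4 and the other called partners past the first 3 are named because few were called. With the columns as named, 21, 28 and 28 of the 37 partners and 4, 3 and 4 of the 7 GABA-B and muscarinic genes were called for diet in LD, diet in DD and diet by light, against 65.5%, 70.8% and 77.6% of all genes.

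Of the genes for synthesis and transport of these transmitters, Glul, glutamine synthetase, was higher in -Trp LD (1 of 20 called, log2 difference 0.23, limma adjusted p = 0.0075), and Slc6a9, a glycine transporter, was lower in -Trp DD (1 of 19, -0.28, adjusted p = 0.0056). None was called for diet by light. Of the enzymes of the kynurenine pathway, 0 of 6 were called in LD and 0 of 5 in DD. None of 8 immediate early genes was called in either comparison. Of 16 core clock genes, Per1 was higher in -Trp LD and Cry2 lower in -Trp DD. For diet by light, 1 of 6 kynurenine enzymes, 0 of 8 immediate early genes and 3 of 16 core clock genes were called, against 7.69% of all genes. The called ones all had a more negative diet difference in DD. By the order of the column names, diet in LD and diet in DD called 11 and 15 of 20 transmitter genes, 3 and 3 of 6 kynurenine enzymes, 2 and 3 of 8 immediate early genes and 7 and 13 of 16 core clock genes. Diet by light then called 14 of the 20 transmitter genes, 3 of 6 kynurenine enzymes, 4 of 8 immediate early genes and 12 of 16 core clock genes.

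LD and DD differed in most genes of the genome, so the receptor genes have to be read against that. With the Ctrl diet, 35 of 48 receptor genes were called (72.9%), 26 higher and 9 lower in DD, against 78.8% of all genes (37.8% higher and 41.1% lower). With the -Trp diet, 36 of 48 were called (75.0%), 26 higher and 10 lower, against 79.5% of all genes (37.8% higher and 41.7% lower). The share called was thus slightly below that of all genes on this scale, while more of the called receptor genes were higher than lower. The median log2 difference (DD minus LD) was 0.24 with the Ctrl diet and 0.25 with the -Trp diet, against -0.02 over all genes in both. On FPKM as deposited the median over all genes was -0.11 in both diets, and the splits were 24 higher and 12 lower, and 24 higher and 14 lower. After quantile normalization 39 receptor genes were called with the Ctrl diet (81.2%, against 77.1% of all genes) and 44 with the -Trp diet (91.7%, against 76.9%), so whether the share lay below or above that of all genes depended on the scaling. The splits were then 30 higher and 9 lower, and 32 higher and 12 lower. The light condition and the sum of FPKM of the libraries cannot be told apart, since 71 of 72 libraries lie on the side of their light condition.

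Gria2, at chr3:80681450-80802835 on the minus strand, was among the genes whose groups did not overlap. It ran from 23.7 over a median of 29.4 to 42.1 FPKM in Ctrl LD, and from 61.5 over 68.9 to 96.5 in Ctrl DD. Without Ctrl DD replicate 1 at 12 h, the library with 279 FPKM of Slc17a7, the highest Ctrl DD value was 83.3. The log2 difference was 1.36 (SE 0.062, limma, n = 18 per group) with the Ctrl diet. Of the 48 genes, 5 did not overlap between Ctrl LD and Ctrl DD (Gria2, Grin2b, Grin2a, Grm5 and Gria3), against 22.1% of all genes. With the -Trp diet the log2 difference of Gria2 was 1.40 (SE 0.096), and the groups overlapped through 1 library, -Trp DD replicate 2 at 4 h, with 39.0 FPKM against 68.7 to 82.4 in the other 17. Only Grin1os did not overlap with the -Trp diet, against 15.7% of all genes. Without that library 7 receptor genes did not overlap, against 27.5% of all genes, and 36 were called, 26 higher and 10 lower. The log2 differences of these 7 with the -Trp diet were then 1.45 for Gria2, 1.41 for Grin2b, 1.44 for Grin2a and 2.26 for Glra3. They were 1.29 for Gabrg3, 1.19 for Gabrb1 and 0.91 for Grin1os.

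The NMDA subunits Grin2a and Grin2b were higher in DD. Grin2b, at chr6:135713233-136173511 on the minus strand, had a lowest, median and highest value of 0.438, 0.715 and 1.24 FPKM in Ctrl LD and of 2.17, 3.31 and 4.29 in Ctrl DD. Its log2 difference was 1.66 (SE 0.078) with the Ctrl diet and 1.32 (SE 0.117) with the -Trp diet. Grin2a had 0.191, 0.431 and 0.837 FPKM in Ctrl LD and 1.62, 2.22 and 7.41 in Ctrl DD, a log2 difference of 1.69 (SE 0.110) on a scale with a pseudocount close to its LD level. The value of 7.41 is that of Ctrl DD replicate 1 at 12 h, the library with 279 FPKM of Slc17a7, and the highest of the other 17 was 2.75. Grin1, their obligatory partner, differed by 0.02 with the Ctrl diet, which was not called, and by -0.18 (limma adjusted p = 0.0012; 0.17 after quantile normalization, adjusted p = 0.0022) with the -Trp diet. Grin2d and Grin3a were called with neither diet.

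Glycine receptor genes moved in both directions. Glra1, a channel-forming subunit at chr11:55514238-55608198 on the minus strand, had a lowest, median and highest value of 0.341, 0.867 and 1.44 FPKM in Ctrl LD and of 0.151, 5.44 and 7.78 in Ctrl DD. The value of 0.151 is that of Ctrl DD replicate 1 at 12 h, the library with 279 FPKM of Slc17a7, and the lowest of the other 17 was 3.11. The log2 difference of Glra1 was 2.02 (SE 0.191) with the Ctrl diet and 2.04 (SE 0.143) with the -Trp diet. Glra3, at chr8:55940460-56130070, had 0.624, 2.81 and 4.33 FPKM in Ctrl LD and 0.476, 11.2 and 16.4 in Ctrl DD, and differed by 1.86 (SE 0.238) and 2.16 (SE 0.18) in the Ctrl and -Trp diets. Glra2, on chromosome X, was lower in DD, with 13.9, 21.4 and 26.0 FPKM in Ctrl LD and 3.54, 12.9 and 19.8 in Ctrl DD, and log2 differences of -0.60 (SE 0.114) and -0.36 (SE 0.076). The lowest Ctrl DD values of Glra3 and Glra2 were also those of that library, and without it they were 8.93 FPKM for Glra3, above all Ctrl LD values, and 11.6 for Glra2. Glrb, the shared beta subunit, was lower with the Ctrl diet (-0.18, limma adjusted p = 0.0055; 0.14 after quantile normalization) and differed by 0.03 with the -Trp diet, which was not called.

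Of the 48 genes, 24 were higher in DD with both diets, 5 were lower with both (Grm2, Grik1, Glra2, Grm4 and Chrna4), none was called in opposite directions, and 6 were called with neither, among them Gabra4, Gabrr2, Grin2d, Grin3a and Grm3. Of the GABA-A subunits, Gabrb1 differed by 1.17 and 1.11 on the log2 scale, Gabrg3 by 1.33 and 1.22, Gabra2 by 0.78 and 0.73 and Gabrq by 0.69 and 0.87, with the Ctrl and the -Trp diet in that order. Of the kainate genes, Grik2 differed by 0.67 and 0.72, Grik3 by 0.72 and 0.43, Grik4 by 0.50 and 0.30 and Grik1 by -0.47 and -0.32. Gabrd, again named for its spread, differed by -0.63 (limma adjusted p = 0.062) and -1.35 (limma adjusted p = 0.00053). Grm5 differed by 0.89 and 0.77, Gria3 by 0.72 and 0.63 and Chrna7 by 0.77 with each diet. Chrnb2, by contrast, differed by -0.07, which was not called, and by -0.19 (limma adjusted p = 0.0002). The heteromeric nicotinic subunit Chrna2, below the filter and named after its values were seen, had means of 0.641 and 0.665 FPKM in Ctrl LD and -Trp LD and of 0.0395 and 0.0511 in Ctrl DD and -Trp DD.

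The difference between DD and LD went with transcript length in all genes. With the Ctrl diet its median over all genes was -0.43 on the log2 scale for genes with a longest transcript of up to 2000 bases, -0.11 from there to 4000, 0.22 from there to 8000 and 0.69 above 8000. The receptor genes had medians of 0.15 (11 genes), 0.12 (28 genes) and 1.25 (8 genes) in the last 3 classes. With the -Trp diet the medians over all genes were -0.35, -0.10, 0.18 and 0.64, and those of the receptor genes 0.12, 0.08 and 1.16. The class above 8000 bases, with Grin2b at 24060 bases, thus had the highest median among receptor genes and among all genes. Between the diets in DD (-Trp minus Ctrl) a smaller trend ran the other way. There the medians over all genes were 0.07, 0.02, -0.03 and -0.06 from the shortest class to the longest. Receptor genes had medians of 0.02, -0.07 and -0.08 in the last 3 classes. For diet by light the medians over all genes were 0.08, 0.02, -0.03 and -0.06. The part of length in the receptor differences between light conditions or diets was not tested.

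**Figure D4:**
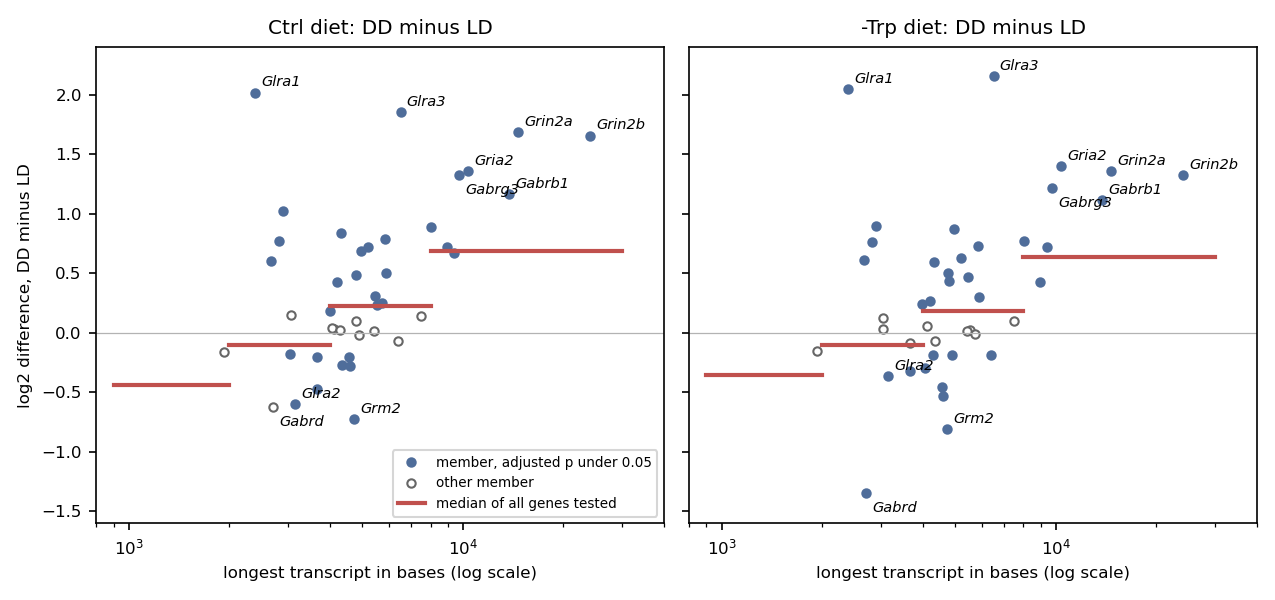
Log2 difference between DD and LD of receptor genes against the length of the longest transcript (log axis, bases), by diet, with the median over all genes of each length class as a red line. The red line climbs from -0.43 to 0.69 with the Ctrl diet and from -0.35 to 0.64 with the -Trp diet, and most of the receptor genes above 8000 bases lie at or above it.

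Markers of cell types and of neighbouring nuclei also differed between LD and DD, as did 78.8% of all genes with the Ctrl diet and 79.5% with the -Trp diet. With the Ctrl and the -Trp diet respectively, 9 and 4 of 14 SCN markers were lower in DD and 3 and 4 were higher, 5 and 6 of 6 pan-neuronal markers were lower, and 5 and 6 of 6 oligodendrocyte markers were lower. Of 8 markers of neighbouring hypothalamic nuclei, 5 were higher and 3 lower with each diet. In the same order of diets, 2 and 4 of 5 microglia markers and 3 and 0 of 3 ependymal markers were lower. Of 6 astrocyte markers 2 and 1 were higher and 2 and 2 lower. Of 4 endothelial markers 1 and 3 were higher and 1 and 1 lower. Of 3 oligodendrocyte precursor markers, 2 were higher and 1 lower with each diet. With the Ctrl diet Agrp went from 0.487 FPKM in LD to 17.7 in DD, Npy from 19.0 to 93.4 and Pomc from 9.86 to 134.9, while Oxt went from 1684 to 480. The summed SCN markers ranged from 652 to 1398 FPKM in Ctrl LD, 467 to 1297 in -Trp LD, 182 to 761 in Ctrl DD and 453 to 1002.4 in -Trp DD. In the same order of groups the pan-neuronal sums ranged from 1112 to 1562, 1216 to 1519, 787 to 1643 and 750 to 1057 FPKM, the oligodendrocyte sums from 1830 to 3258, 1590 to 3112, 1058 to 3186 and 853 to 2130 FPKM, and the sums of neighbouring nuclei from 1330 to 2726, 419 to 3375, 176 to 1679 and 1136 to 2433 FPKM. Without the 4 libraries with more than 10 FPKM of Slc17a7, the highest sums in Ctrl DD were 1034 FPKM (pan-neuronal) and 2345 (oligodendrocyte). The lowest sums of neighbouring nuclei were then 1218 in -Trp LD and 906 in Ctrl DD. The part of these markers in the receptor differences was not tested.

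Of 20 genes for synthesis and transport of the transmitters, 10 were lower and 4 higher in DD with the Ctrl diet, and 11 lower and 4 higher with the -Trp diet, shares no greater than the 78.8% and 79.5% of all genes. Chat, which makes acetylcholine, fell by 2.79 and 2.85 on the log2 scale, from 5.69 to 0.303 FPKM and from 6.20 to 0.364. Slc32a1, the vesicular transporter of GABA and glycine, fell by 1.40 and 1.42. The choline transporter Slc5a7 fell by 2.19 with the Ctrl diet. Of 37 receptor partners, 13 were higher and 12 lower with the Ctrl diet and 11 higher and 18 lower with the -Trp diet, among them Gabarap, which binds the GABA-A gamma subunit, at -0.85 and -0.79. Under the column names, 1 and 14 of the 20 transmitter genes and 6 and 27 of the 37 partners were called with the Ctrl and the -Trp diet. In that order of columns 3 of 48 receptor genes were called between LD and DD with the Ctrl diet (5.65% of all genes) and 36 of 48 with the -Trp diet (78%), 12 of these higher and 24 lower.

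Oscillation over the day was tested with JTK_CYCLE for a period of 24 h on FPKM as deposited, at a p under 0.05 that is not adjusted over genes. Each p refers to a 24 h cycle over all 6 time points and not to a difference between single times. In Ctrl LD 3 of 68 receptor genes were called (4.41%), against 7.11% of all genes. In -Trp LD they were 3 (4.41%), against 7.42%. In Ctrl DD they were 7 (10.3%), against 4.92%, and in -Trp DD 2 (2.94%), against 1.42%. Over all 68 genes the share was thus below that of all genes in both LD groups and above it in both DD groups, there on 7 and 2 genes. The direction in -Trp DD rested on genes of low level. Among genes averaging 0.5 FPKM or more in that group, 0 of 50 receptor genes were called, against 262 of 14453 genes in all. Under the same limit Ctrl DD had 5 of 50, against 959 of 14496, and its share stayed above that of all genes. The share stayed below it in both LD groups. After Benjamini-Hochberg adjustment over all genes, 0 receptor genes were called in each group. Of 16 core clock genes 9, 6, 0 and 1 were called in the same order of groups, and 10, 0, 4 and 6 with the columns as named.

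In Ctrl LD the AMPA subunit Gria2 had 29.0, 33.9 and 42.1 FPKM in the 3 libraries at 0 h and 23.7, 23.8 and 29.3 at 4 h. Its mean thus went from 35.0 at 0 h to a low of 25.6 at 4 h (JTK_CYCLE, exact null distribution, p = 0.020). Gria3 had a highest mean of 15.5 at 0 h and a lowest of 12.4 at 8 h (exact p = 0.026). The calls were kept in 16 and 13 of the 18 runs that left out 1 library. The kainate subunit Grik1 was the gene called in most groups. It had its highest mean at 4 h in Ctrl LD (9.85 FPKM, exact p = 0.044) and in -Trp LD (10.4 FPKM, exact p = 0.011) and at 0 h in Ctrl DD (8.11 FPKM, exact p = 0.026). The call in -Trp LD was kept in each of 18 runs that left out 1 library, whereas that in Ctrl LD was kept in 7 and was lost without Ctrl LD replicate 2 at 20 h, which held 13.6 FPKM of Slc17a7 (exact p = 0.070).

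In -Trp LD the nicotinic subunit Chrnb2 was called over the 6 time points with a fitted peak at 10 h (exact p = 0.0058). Its mean was lowest at 0 h, with values of 15.8, 16.1 and 17.0 FPKM, and highest at 4 h, with 18.3, 19.4 and 22.7. No library at 0 h reached those at 4 h. In Ctrl DD, Chrna5, a nicotinic subunit that acts as an accessory to others, had the smallest p of all receptor genes (exact p = 3.7e-05) at a mean of 0.0884 FPKM. Its 3 values were 0.020, 0.023 and 0.023 FPKM at 0 h and 0.088, 0.12 and 0.473 at 12 h. The value of 0.473 is that of Ctrl DD replicate 1 at 12 h, without which the call was kept (exact p = 0.00018). At such a level a few fragments may set the order, and the depth is unknown. Grm5 was called in Ctrl DD at 18.4 FPKM at 4 h and 14.2 at 20 h (exact p = 0.0080). The calls of Chrna7, Glra2, Grik1, Grin2d and Chrnb3 in Ctrl DD were lost without Ctrl DD replicate 1 at 12 h, the library with 279 FPKM of Slc17a7, and without it 6 receptor genes were called in all. In -Trp DD the called genes were Chrnb4 (mean 0.149 FPKM, exact p = 0.020) and Chrna10 (0.029 FPKM, exact p = 0.044), the latter lost without -Trp DD replicate 1 at 12 h (exact p = 0.15). With the columns as named, 30, 2, 22 and 4 receptor genes were called, against 37.8%, 2.48%, 27.6% and 6.68% of all genes.

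**Figure D5:**
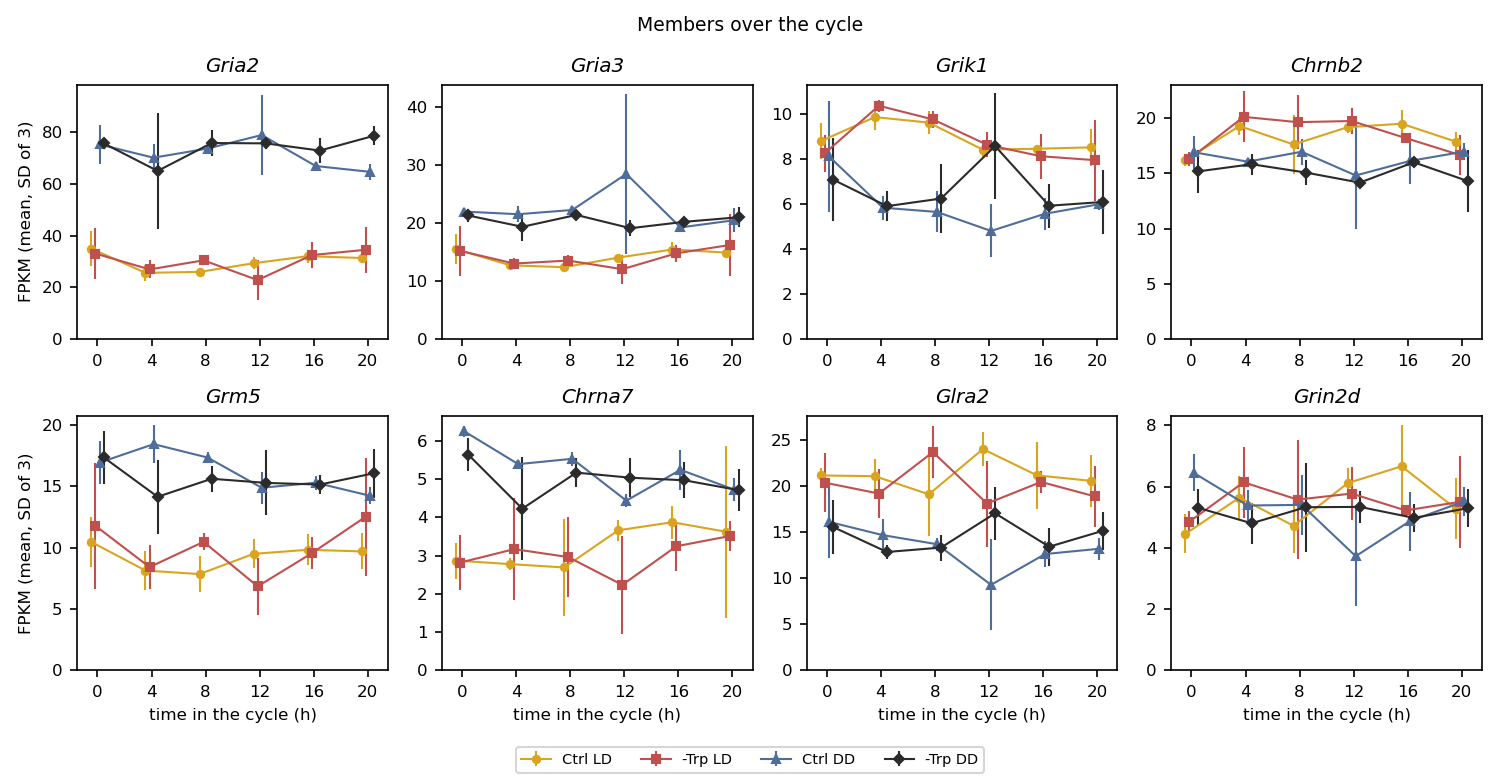
FPKM of Gria2, Gria3, Grik1, Chrnb2, Grm5, Chrna7, Glra2 and Grin2d by time of day (hours) in the 4 groups, as the mean and SD of 3 libraries. The LD and DD curves of Gria2 stand apart at all times, and within a group the means run, for example, from 35.0 to 25.6 FPKM for Gria2 in Ctrl LD and from 16.1 to 9.25 FPKM for Glra2 in Ctrl DD. The mean of 9.25 at 12 h includes 3.54 FPKM in replicate 1, the library with 279 FPKM of Slc17a7. The other libraries at that time held 12.0 and 12.2 FPKM, and without replicate 1 at 12 h the oscillation of Glra2 was not called.

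Whether the diet changed a rhythm was tested with limma as the joint change of the cosine and sine terms. In LD 0 of 48 receptor genes were called by limma, as were 0% of all genes, and 0 receptor genes had an unadjusted p under 0.05, against 3.21% of all genes. The smallest p were those of Grm4 (0.101) and Chrnb2 (0.103), both unadjusted limma values. In DD 0 of 50 were called by limma, against 0.0345% of all genes, and 8 had an unadjusted p under 0.05, against 6.84% of all genes. The smallest among them were those of Gabrb2 (limma p = 0.015, adjusted p = 0.60) and Grin2d (limma p = 0.025, and 0.101 without the 4 libraries with more than 10 FPKM of Slc17a7). With the columns as named, 23 of 48 and 14 of 48 were called in LD and DD, against 52% and 34.7% of all genes.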

How the data were processed

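The 72 SCN libraries were made with a stranded poly(A) kit and sequenced from both ends. The authors deposited FPKM per gene and library, computed with Cufflinks after alignment to mm10 with TopHat, and their processing notes also list Trimmomatic. Tool versions, and whether counting used strand, are not given in the sources used here. FPKM holds no read numbers, so depth and counting error are unknown. That each library is another mouse is taken from the study, and p-values measure the spread between libraries.

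FPKM were divided by median-of-ratios factors (0.909 to 1.083), and log2 values with a pseudocount of 0.5 were fitted by limma (version 3.58.1, R version 4.3.3) for genes averaging 0.5 FPKM or more in the libraries compared. Time of day was a factor, and p-values were adjusted by Benjamini-Hochberg over all genes, with a threshold of 0.05. JTK_CYCLE was written anew for Python (version 3.11.15, with scipy 1.17.1, numpy 2.4.6 and pandas 2.3.3), with Bonferroni adjustment over 6 lags, and tested, like the limma fits, on simulated data. Positions are from GENCODE M21, and matplotlib 3.10.9 drew the figures. The main fits did not pair libraries by replicate number.

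Named genes were those past the threshold in each comparison (at most 12, or the closest 2), the highest gene of each family, the 3 smallest JTK_CYCLE p per group, the 2 smallest p of each rhythm test, the 3 smallest p among called genes of each other list, and Grin1, Grin2a, Grin2b, Gria2, Gabra2, Glra2, Glrb, Chrna7 and Chrnb2. The receptor genes, the other lists and the order of the libraries were chosen with earlier results of these data known. The alternatives were the columns as named, pseudocounts of 0.1 and 1, FPKM as deposited, quantile normalization, other filters, a replicate block, 1 fit for all libraries, no time term, and leaving out each library. Leaving out the 4 libraries with more than 10 FPKM of Slc17a7, and the counts of overlap without -Trp DD replicate 2 at 4 h, were added after seeing the data. Some genes that the rule or the lists name are not reported here, in text or figures, and stay within the counts. Liver libraries and other assays were not analysed here.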

Additional observations from a re-analysis of the deposited data

Results flagged for a closer look

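The difference between the diets (-Trp minus Ctrl, log2 scale) differed between LD and DD for 4 receptor genes, by the interaction term of the limma fit over 72 libraries. They are 8.33% of the 48 tested, near the 7.69% of all genes called. The interaction was -0.21 for Gria1 (adjusted p = 0.0039), -0.3311 for Grik5 (adjusted p = 0.010), -0.2067 for Grin1 (adjusted p = 0.041) and -0.2926 for Grik3 (adjusted p = 0.046). Gria1 and Grik3 were themselves called between the diets in DD and not in LD, Grik5 had a positive difference of 0.16 in LD that was not called and a called one of -0.17 in DD, and Grin1 was called in neither. The call of Grik3 was kept in 33 of the 72 fits that left out 1 library and was lost without -Trp DD replicate 2 at 4 h (adjusted p = 0.061). With the columns as named, the interaction was positive for Grik5 and Grin1.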

How the results depend on the processing

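The order of the columns changed more results than any other choice tried. With the columns as named, receptor genes called were 31 for diet in LD, 34 for diet in DD, 3 for light with the Ctrl diet, 37 for diet by light, and 23 and 14 for the diet rhythms in LD and DD, and oscillating genes were 30 (Ctrl LD), 22 (Ctrl DD) and 4 (-Trp DD). Of 55 named results, 43 were level or rhythm differences and 12 were oscillation p-values. Only the level differences carry a sign, and 23 of them changed it. The log2 differences became -0.25 for Gabrr2 and -0.11 for Grin1 for diet in LD, 0.0042 for Gria1 and 0.1985 for Grik5 for diet in DD, -0.0096 for Grik3 and 0.071 for Glrb for light with the Ctrl diet, and 0.30 for Grik5 and 0.23 for Grin1 for diet by light. For light with the -Trp diet they became -0.94 for Grin1os, -1.32 for Gria2, -1.92 for Glra1, -1.08 for Gabrb1, -1.885 for Glra3, -1.50 for Grin2a, -1.41 for Grin2b, -0.64 for Grik2, -1.14 for Gabrg3, -0.67 for Gria3, -0.78 for Gabra2, 0.081 for Grin1, 0.62 for Glra2, -0.66 for Chrna7 and 0.13 for Chrnb2. Quantile normalization reversed Glrb (0.14, light with the Ctrl diet) and Grin1 (0.17, light with the -Trp diet) and called 1 gene for diet in LD. FPKM as deposited called 3 genes for diet in DD (1 higher, and Gria1 and Grik3 lower) and 2 for diet by light, and no filter called 2 in each. Both pseudocounts kept the call and direction of all 43 level and rhythm results.

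Without the 4 libraries with more than 10 FPKM of Slc17a7, 2 genes were called for diet in LD and 9 for diet in DD, and without the 1 of their group 8 oscillated in Ctrl LD and 1 in -Trp DD. Leaving out each library in turn gave 0 to 2 genes for diet in LD (2 without Ctrl LD replicate 2 at 20 h), 2 to 9 for diet in DD, 34 to 37 and 36 to 38 for light with the Ctrl and -Trp diets, 2 to 5 for diet by light (2 in 18 and 3 in 27 of 72 cases), and 0 for both rhythm tests. For diet in DD there were 2, Gria1 among them, without -Trp DD replicate 1 at 0, 4 or 20 h, replicate 2 at 8 h or replicate 3 at 12 h, or without Ctrl DD replicate 1 at 8 h, replicate 2 at 0 or 20 h or replicate 3 at 16 h. There were 3 without -Trp DD replicate 1 at 12 or 16 h or replicate 3 at 16 h, or Ctrl DD replicate 1 at 4 or 16 h or replicate 3 at 4 or 12 h, and 9 without Ctrl DD replicate 1 at 12 h. Oscillating genes ranged from 1 to 8 (Ctrl LD), 2 to 5 (-Trp LD), 2 to 9 (Ctrl DD) and 1 to 3 (-Trp DD). With Benjamini-Hochberg adjustment 0 oscillated in each group, with a limma cosinor model 6, 5 and 11 in Ctrl LD, -Trp LD and Ctrl DD, and with a mean of at least 0.5 FPKM 0 in -Trp DD. The cause of these changes was not tested.

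The deviations of same-numbered libraries correlated with an r over 0.1 in 4, 12, 3 and 10 of 18 pairs (diet in LD and DD, light with the Ctrl and -Trp diets). The median r was -0.012, 0.174, -0.013 and 0.121 in that order. The main fits did not pair libraries by number, and what a shared number stands for was not tested. With a replicate block, 0, 5, 35, 36 and 4 genes were called for diet in LD, diet in DD, light with the Ctrl and -Trp diets and diet by light, 0 in both rhythm tests, and 3, 4, 10 and 2 oscillated. The oscillation of Gabrr2 in -Trp LD was the 1 named call it ended (p = 0.072). Depth is unknown, so genes under 0.5 FPKM carry an error that cannot be given.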
